A study of Mus musculus with 6 samples.

Results

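Antigen presentation genes are described here in mouse hearts after base editing of Camk2d: 10 genes, found by symbol among the 35976 genes of the deposited count table. They are B2m, H2-K1 and H2-D1 (the class I chains), Tap1, Tap2 and Tapbp (class I peptide loading), and H2-Aa, H2-Ab1, H2-Eb1 and Cd74 (class II chains and invariant chain). All 10 had enough counts in both groups to be tested, with at least 30 counts in every library, among 14879 tested genes. The study compared wild-type hearts in 2 groups, each with 3 libraries of total RNA. The edited hearts received an adeno-associated virus, labelled AAV-MYL2-TadA8e-Sauri-U6-Camk2d sgRNA7, that carries an adenine base editor (TadA8e, a deaminase, with Sauri, a Cas9) behind the MYL2 promoter, which is active in heart muscle, and a guide aimed at the splice donor of Camk2d intron 7. The control hearts had no treatment, so the virus, the editor and the edit cannot be told apart. The labels give no strain, sex, age, dose, interval or part of the heart, and do not say that each library is a separate animal. The p-values then measure the spread between these libraries, which may be technical.

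Class I molecules show peptides from inside the cell to cytotoxic T cells. A polymorphic heavy chain pairs with beta-2-microglobulin, and the TAP transporter brings peptides from the cytosol into the endoplasmic reticulum, where tapasin holds the empty molecule next to it. Class II molecules are pairs of an alpha and a beta chain made mainly by macrophages, dendritic cells and B cells. They show peptides taken up from outside to helper T cells, and the invariant chain Cd74 guards their groove until they reach the endosome. Nearly all nucleated cells make class I, which interferon gamma raises, while class II depends on the coactivator CIITA.

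In the mm10 annotation of the count table, 8 of the 10 genes lie on chromosome 17, within 1348 kb from Tapbp to H2-D1. H2-K1 spans chr17:33996012-34000341 on the minus strand, and H2-D1 lies at chr17:35263094-35267497 on the plus strand. Tap1 (chr17:34187556-34197225) and Tap2 (chr17:34204479-34216321), both on the plus strand, lie on either side of Psmb8. H2-Ab1 (chr17:34263227-34269418, plus), H2-Aa (chr17:34282751-34287771, minus) and H2-Eb1 (chr17:34305867-34316674, plus) follow. B2m is on chromosome 2 (chr2:122147687-122153082, plus), and Cd74 lies outside both chromosomes.

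The upstream sequences of 5 members are shown because class I and class II genes are known to share a promoter module, while their RNA levels in these hearts lay far apart. RefSeq promoters (GRCm38.p6, the same build as mm10) were found for 7 of the 10 genes. The windows are printed 5′ to 3′ up to the base before the start site, and capitals mark motif matches on either strand. They are CCAAT (core of the Y box, bound by NF-Y) and GCAAC (core of the X1 box, bound by RFX). TGACG is the core of the X2 box, bound by CREB. GAANNGAAA is a form of an interferon-stimulated response element core. The form of the NF-kB site searched is GGG, any 2 bases, then TTCCC. Only these exact spacings were marked. In B2m, gaaactgaaa differs from GAANNGAAA only by a longer spacing, as does gggaaagtccc, on the other strand, from the NF-kB form. Both are unmarked. Neighbouring matches can overlap, as the forward and reverse TGACG do in H2-Aa.
H2-K1 (chr17:34000334-34000493, minus strand): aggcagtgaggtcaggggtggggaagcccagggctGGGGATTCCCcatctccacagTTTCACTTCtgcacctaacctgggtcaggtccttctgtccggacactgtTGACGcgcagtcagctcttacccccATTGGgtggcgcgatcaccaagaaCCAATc
H2-D1 (chr17:35262914-35263093, plus strand): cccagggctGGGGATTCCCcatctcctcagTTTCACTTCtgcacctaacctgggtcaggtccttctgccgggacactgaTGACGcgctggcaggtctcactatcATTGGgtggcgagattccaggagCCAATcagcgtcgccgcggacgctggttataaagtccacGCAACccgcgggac
B2m (chr2:122147517-122147686, plus strand): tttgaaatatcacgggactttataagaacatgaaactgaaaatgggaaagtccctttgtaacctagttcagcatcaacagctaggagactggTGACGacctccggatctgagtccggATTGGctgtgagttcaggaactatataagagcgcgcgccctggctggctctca
H2-Aa (chr17:34287824-34287963, minus strand): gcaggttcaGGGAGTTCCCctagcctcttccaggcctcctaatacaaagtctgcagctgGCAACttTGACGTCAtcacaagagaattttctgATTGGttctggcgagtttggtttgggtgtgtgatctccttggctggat
H2-Eb1 (chr17:34305757-34305866, plus strand): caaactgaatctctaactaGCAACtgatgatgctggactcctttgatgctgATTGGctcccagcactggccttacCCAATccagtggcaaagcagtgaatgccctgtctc

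CCAAT was found within 250 bases of the start in all 7 promoters, against 33.85% of the 32851 promoters in the same table. CCAAT together with GCAAC or TGACG was found in 6 of the 7, against 14.72% of all promoters. No order or spacing was required for this count. In Tap1, CCAAT at -222 to -218 lay upstream of GCAAC (-196 to -192) and TGACG (-86 to -82), unlike the pairs in H2-Aa and H2-Eb1 below. GCAAC alone was in 29.88% of all promoters, TGACG alone in 17.77%, GAANNGAAA in 6.31% and the NF-kB site in 1.53%. In H2-Aa, GCAAC sat at -81 to -77 and CCAAT, in reverse, at -48 to -44. In H2-Eb1 the same pair was at -91 to -87 and -59 to -55. H2-K1 and H2-D1 both held the NF-kB site and GAANNGAAA upstream of TGACG, in the same order. Tap1 and Psmb9, an immunoproteasome subunit, are transcribed away from each other, with 226 bases between their start sites. A match describes letters in this window, not a bound site. The shares count the exact patterns only, so a missing match does not show that an element is absent.

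Class I chains are copies of one another in part, which limits how reads can be assigned. The longest run shared by the coding sequences of H2-K1 and H2-D1 in GENCODE M21 was 91 bases, from base 738 to 828 of the H2-K1 coding sequence. The same 91 bases are in H2-Q7, a further class I gene. Between H2-D1 and H2-Q7 the longest run was 130 bases, from base 721 to 850 of the H2-D1 coding sequence. The run printed here is the one of 91 bases.
H2-K1, H2-D1 and H2-Q7, shared run: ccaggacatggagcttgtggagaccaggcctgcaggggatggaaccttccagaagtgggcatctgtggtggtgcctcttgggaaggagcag
Of the 50-base windows in their transcripts, 9.63% in H2-K1 and 12.8% in H2-D1 also occurred in another gene. In 100-base windows these shares were 0.957% and 3.59%. B2m, H2-Ab1, H2-Eb1 and Cd74 shared no window of either length. Tap2 and Tapbp shared 11.6% and 23.2% of their 50-base windows with other genes, chiefly the gene models Gm15821 (9.22%) and Gm19412 (20.3%). Tapbp shared 14.0% of its exon bases with Gm19412 on the opposite strand, and H2-K1 shared 2.39% with Gm41575, also opposite. Whether the counting used strand is not stated, so reads of such pairs cannot be told apart.

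Total counts per library ranged from 17062412 to 23097998. Camk2d RNA, the targeted gene, was at 226, 220 and 224 CPM (counts per 1000000 counts of the library, its size scaled by TMM) in controls 1, 2 and 3, against 138, 130 and 164 CPM in edited 1, 2 and 3. The counts cover the whole gene and do not show its splicing. Controls 1 and 3 held little of the atrial light chain Myl7 (6.88 and 0.209 CPM, against 332 in control 2 and 371 to 914 in edited hearts). Results are therefore given also without these 2 controls and with Myl7 as a covariate. Neither alternative makes the atrial RNA equal. Bmp10, a further atrial marker named after its values were seen, was at 101.8 CPM in control 2 and at most 0.112 CPM in every other library. Mesothelial markers stood apart too: 7 of 10 rose and 1 fell, and their summed level was 30.3 to 32.0 CPM in controls and 37.4 to 67.4 in edited hearts. Their part in the results below was not tested. In a bulk sample, fewer cells of a type and less RNA per cell cannot be told apart.

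The RNA of antigen presentation genes did not pass the test in either direction. None of the 10 genes was called higher or lower in edited hearts (edgeR's quasi-likelihood test, Benjamini-Hochberg adjusted p under 0.05), where 9.66% of all tested genes were called (4.93% higher and 4.74% lower). At an unadjusted p under 0.05 the count was also 0, against 24.4% of all tested genes. DESeq2 and limma voom called 0 members as well. The groups overlapped for all 10 genes, while 29.3% of tested genes had groups that did not overlap. The estimated log2 change was above 0 for 7 genes and below 0 for 3, with a median of 0.08 against 0.001 over all tested genes. The median absolute log2 change was 0.08, against 0.12 over all tested genes.

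**Figure D1:**
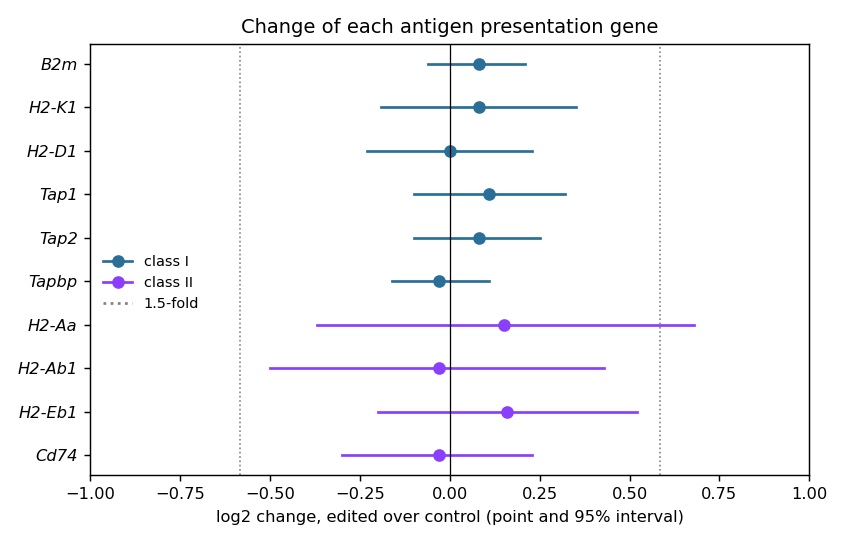
Estimated log2 change of each of the 10 genes, edited over control (points), with 95% intervals from edgeR's quasi-likelihood fit (bars); 3 libraries in each group. Every interval includes 0, and that of H2-Aa alone reaches past the dotted line for 1.5-fold.

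Missing the threshold does not show equal levels, so the intervals matter. The 95% interval lay within 1.5-fold in either direction for 9 of 10 genes, and within 1.3-fold for 7. The class I genes had 190 to 2010 counts per library and a median standard error (SE) of 0.09. The class II genes had 30 to 146 counts per library and a median SE of 0.19, though Cd74 and the class I chain H2-K1 both had an SE of 0.12. H2-Aa was the gene whose interval reached past 1.5-fold.

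B2m, the light chain shared by all class I molecules, was at 91.1, 81.5 and 87.6 CPM in controls and 85.7, 94.4 and 94.5 CPM in edited hearts. Control 2 was the lowest library, and edited 2 and 3 were the highest. The edited mean was 106% of the control mean, and the log2 change was 0.08 (SE 0.06). The interval was 96.2% to 116% of the control level (edgeR adjusted p = 0.492).

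H2-K1, a classical heavy chain, was at 50, 45.3 and 49.1 CPM in controls and 41.7, 59.0 and 52.3 CPM in edited hearts. The edited libraries held both the lowest and the highest value, so the groups overlapped. The log2 change was 0.08 (SE 0.12), with an interval of 87.8% to 127% of the control level (edgeR adjusted p = 0.742). H2-D1, the other classical heavy chain, was at 94.3, 80.7 and 89.1 CPM against 74.9, 98.7 and 90.8 CPM. It had the same lowest and highest libraries, edited 1 and edited 2. Its means were 88.0 ± 6.88 and 88.2 ± 12.1 CPM (SD, n = 3), and its interval was 85.5% to 117%. Among edited hearts the coefficient of variation (CV, SD over mean) was 17.1% for H2-K1 and 13.8% for H2-D1. Counting error alone would give 3.28% and 2.46%.

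In the peptide loading genes the groups overlapped as well. Tap1, a subunit of the peptide transporter, was at 11.7, 10.01 and 10.2 CPM for the untreated and 11.5, 10.9 and 12.01 CPM for the edited libraries. All 3 edited libraries were above the control mean, but control 1 was above edited 1 and 2. Tap2, its partner subunit, was at 25.0, 21.7 and 21.1 CPM against 22.2, 24.65 and 24.57 CPM. Control 1 was the highest and control 3 the lowest. Tapbp, which encodes tapasin, was at 57.7, 52.9 and 55.4 CPM against 50.5, 57.4 and 55.4 CPM. Here edited 1 was the lowest and control 1 the highest. Their log2 changes were 0.11 (SE 0.10), 0.08 (SE 0.08) and -0.03 (SE 0.06), and the intervals were 93.2% to 125%, 93.3% to 119% and 89.4% to 108% of control. Exact two-sided permutation tests of log2 CPM gave p = 0.3, 0.4 and 0.7, where 3 libraries against 3 cannot go below 0.1.

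The class II genes were scarce. H2-Aa, an alpha chain, had 30, 41 and 49 counts in controls and 41, 42 and 58 in edited hearts, which is 1.79, 2.16 and 2.56 CPM against 1.75, 2.38 and 3.24. Edited 1 was the lowest library and edited 3 the highest. H2-Ab1, its beta chain partner, was at 2.39, 2.63 and 2.25 CPM against 1.88, 3.05 and 2.23. The lowest library was again edited 1, and the highest was edited 2. H2-Eb1, a beta chain of the second class II isotype, was at 3.11, 3.37 and 2.77 CPM against 3.62, 3.17 and 3.52. All 3 edited libraries were above the control mean, with control 2 above edited 2. Cd74, the invariant chain (chromosome 18, plus strand), was at 6.22, 6.90 and 7.36 CPM against 6.23, 6.62 and 7.26, and both groups covered nearly the same range. H2-Ea-ps, the annotated alpha chain pseudogene of that isotype, had no count in any library.

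Log2 changes of the class II genes were 0.15 (SE 0.25) for H2-Aa, -0.03 (SE 0.22) for H2-Ab1, 0.16 (SE 0.17) for H2-Eb1 and -0.03 (SE 0.12) for Cd74. Their intervals were 77.3% to 160%, 70.8% to 135%, 87.2% to 143% and 81.3% to 118% of the control level. Adjusted p values in edgeR's test ran from 0.616 to 0.946. Counting error alone would give a CV of 15.2% for H2-Aa and 14.9% for H2-Ab1, and the edited hearts showed 30.5% and 25.3%. For H2-Eb1 and Cd74 the CV in each group was below the counting CV (12.7% and 8.83%).

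**Figure D2:**
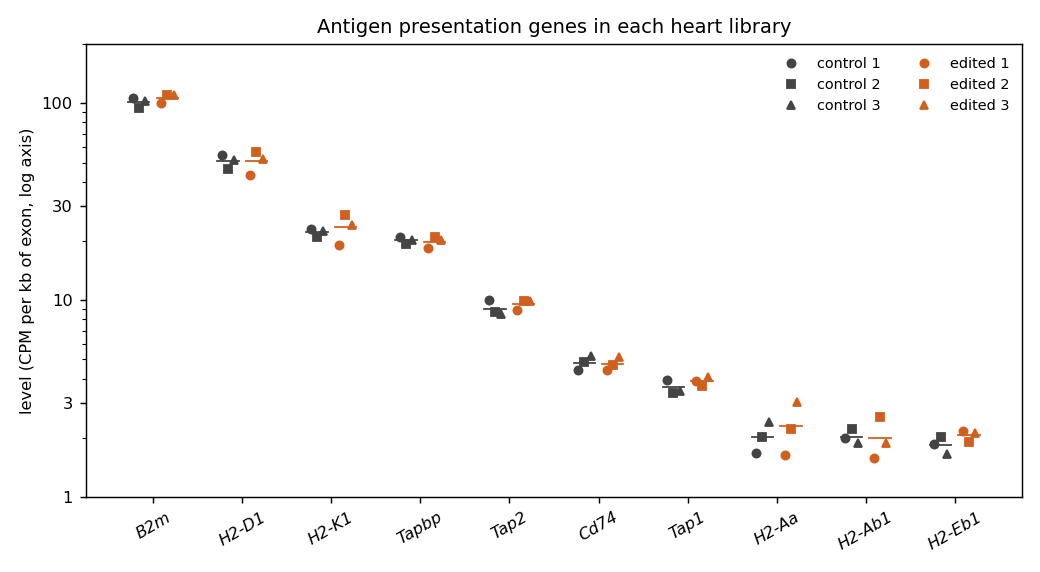
Level of each gene in each library, in TMM-normalized CPM per kb of exon on a log axis, ordered by the mean over 6 libraries; symbols give the library and short lines the mean of each group of 3. Control and edited libraries overlap for every gene, while the genes themselves span from B2m at 103.9 to H2-Eb1 at 1.95 CPM per kb.

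Compared per length, as CPM per kb of exon, the levels spanned a wide range. The order, and ratios per kb, depend on the annotated exon bases. These were 2176 for H2-K1 and 1736 for H2-D1, whose coding sequences have 1107 and 1086 bases. The mean over the 6 libraries was 103.9 ± 6.02 for B2m, 50.7 ± 5.08 for H2-D1, 22.8 ± 2.74 for H2-K1 and 19.96 ± 1.002 for Tapbp (SD, n = 6). Tap2 followed at 9.32 ± 0.697, Cd74 at 4.78 ± 0.3501 and Tap1 at 3.74 ± 0.274. H2-Aa (2.16 ± 0.518), H2-Ab1 (2.02 ± 0.337) and H2-Eb1 (1.95 ± 0.187) came last. The ranges of H2-K1 and Tapbp overlapped, though H2-K1 was higher in 6 of 6 libraries. Those of the 3 class II chains overlapped, and H2-Aa was higher than H2-Ab1 in 3 of 6 libraries. Every other neighbouring pair was apart in all libraries. Among tested genes, B2m stood at percentile 96.5 of level per kb, H2-D1 at 92.9, Cd74 at 47.6 and H2-Eb1 at 29.5.

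Ratios between members were also set side by side. H2-D1 over H2-K1, per kb, was 2.29 ± 0.0672 in controls and 2.17 ± 0.0778 after editing (SD, n = 3). B2m over the sum of the 2 heavy chains was 1.39 ± 0.0198 and 1.45 ± 0.147, highest in edited 1 at 1.60. Tap2 over Tap1 was 2.52 ± 0.0641 and 2.47 ± 0.202. Cd74 over the sum of the 3 class II chains was 0.817 ± 0.0525 and 0.750 ± 0.0609, and the groups overlapped for each of these ratios. The 6 class I genes summed to 207 ± 12.5 CPM per kb in controls and 214 ± 18.4 in edited hearts. The 4 class II genes summed to 10.7 ± 0.685 and 11.1 ± 1.202. The class II sum was 5.22 ± 0.609% of the class I sum in controls and 5.18 ± 0.287% in edited hearts. No p is given for these sums and ratios, since the genes were chosen with results known.

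Single libraries were high or low in many class I genes together. All 6 class I genes were highest in control 1 among the controls, and 5 of 6 were lowest in control 2, the exception being Tap2. Among edited hearts, 5 of 6 were lowest in edited 1, the exception being Tap1, and 4 of 6 were highest in edited 2. The summed endothelial markers (11 genes) were at 2605, 2473 and 2527 CPM in controls 1, 2 and 3, and 2372, 2547 and 2491 CPM in edited 1, 2 and 3. The sum took the order of the summed class I level within each group, but its single genes did not all do so. Of the 11 markers, 5 were highest in control 1 and lowest in control 2 among the controls, 5 were highest in control 2 and 1 in control 3. Among edited hearts 9 of 11 were lowest in edited 1. Endothelial cells are a major cell type of the heart and carry class I. By edgeR's test 0 of the 11 were called, 10 had a log2 change below 0, and the median was -0.03. The defining markers Pecam1 and Cdh5 had means of 303.5 and 519.8 CPM for controls and 301.9 and 508.6 CPM for edited libraries. Pecam1 was highest of the controls in control 2 and Cdh5 in control 3. Their part in the class I pattern was not tested. Over the 6 libraries, Pearson's r between mean log2 levels of the 3 class I chains and of the endothelial markers was 0.58, a description of libraries that share their depth and scaling. For Tapbp it was 0.81, and for Tap1 it was -0.36. The same 3 chains had an r of -0.62 with macrophage markers, 0.44 with B cell markers, -0.35 with dendritic cell markers and -0.34 with heart muscle markers.

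**Figure D3:**
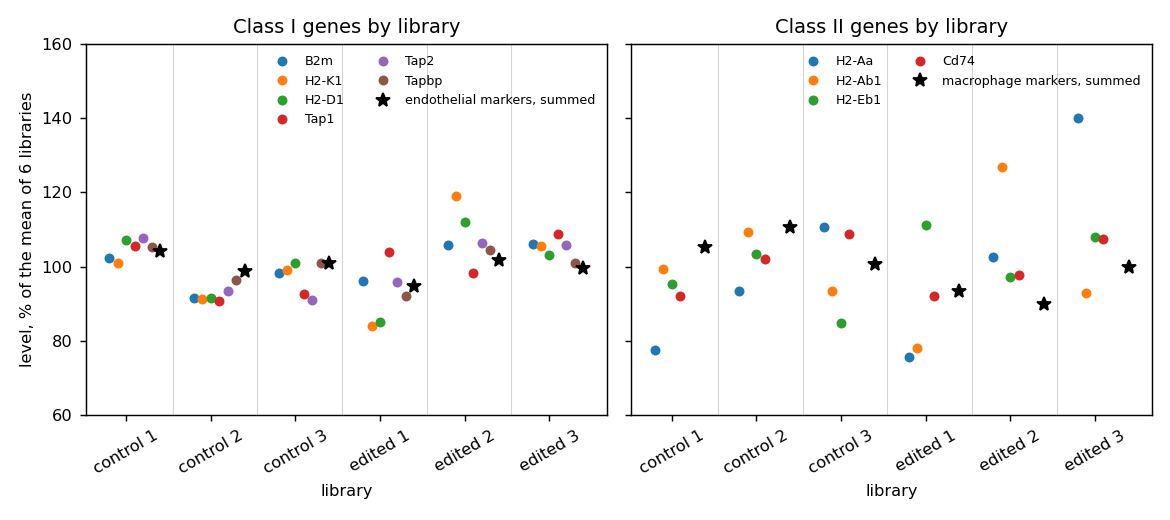
Level of each class I gene (left) and class II gene (right) in each library, as a percent of that gene's mean over the 6 libraries; stars give the summed endothelial (left) or macrophage (right) markers. Class I genes are mostly above their mean in control 1, edited 2 and edited 3, and below it in control 2 and edited 1. Of the class II genes, H2-Aa and H2-Ab1 scatter more widely, from 75.6% to 140% for H2-Aa, while H2-Eb1 and Cd74 do not.

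The class II genes had no such shared order. Among the controls, 2 were highest in control 2 and 2 in control 3. Among edited hearts, 3 of 4 were lowest in edited 1, H2-Eb1 being highest there. Markers of the cells known to carry class II were set beside them. Of 15 tested macrophage markers 0 were called, 14 had a log2 change below 0, and the median was -0.17. Their summed level was 178.8 to 196.6 CPM in controls and 159.7 to 177.6 in edited hearts, so the sums did not overlap. Of the defining macrophage markers, Csf1r was at 32.1 ± 3.89 and 27.2 ± 0.738 CPM, C1qa at 18.1 ± 1.72 and 14.8 ± 0.571, and Adgre1 at 5.98 ± 1.13 and 5.34 ± 0.514 (SD, n = 3). The adjusted p was 0.0886, 0.0527 and 0.552 in edgeR's test. Under the alternative fits the lowest adjusted p was 0.0228 for Csf1r and 0.0251 for C1qa, which passes the threshold. For Adgre1 it was 0.264. Pearson's r between the mean log2 levels of these markers and of the 4 class II genes was 0.01 over the 6 libraries. For the same 4 genes it was 0.37 with dendritic cell markers and 0.35 with endothelial markers. With B cell markers it was -0.05, and with heart muscle markers -0.41.

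Markers of other presenting cells were mostly low. Of the defining dendritic cell markers, Flt3 and Cd209a were at most 0.171 and 0.128 CPM. Zbtb46, which endothelial cells also express, was at 23.3 to 29.5 CPM. Clec9a and Irf8, from the same list and named after their values were seen, were at 4.06 to 4.92 and 11.2 to 14.7 CPM. The rest of that list reached at most 1.005 CPM, for Clec10a in edited 3. The summed level of 11 dendritic cell markers was 45.5 to 46.6 CPM in controls and 45.3 to 45.8 in edited hearts. The 8 B cell markers summed to 13.3 to 13.6 CPM and 11.3 to 15.0 CPM. Of the defining B cell markers, Cd79a had means of 1.48 and 1.44 CPM, and Ms4a1 of 0.969 and 1.204 CPM. The 10 T and NK cell markers summed to 1.74 to 3.18 CPM and 2.12 to 4.48 CPM. Cd3e, a chain of the T cell receptor complex, had 4, 1 and 1 counts in controls and 6, 0 and 0 in edited hearts. Cd3d, a further chain of that complex named after its values were seen, had 0, 1 and 2 counts in controls and 7, 6 and 5 in edited hearts. Gzma, named in the same way, had none in controls and 1, 2 and 1 in edited hearts, and both were too low to be tested. The rest of that list, equally untested, went in both directions. Nkg7 had 0, 3 and 0 counts in controls and none in edited hearts, and Ncr1 had 1, 0 and 2 against 0, 1 and 0. Cd3g had 2, 5 and 7 against 9, 2 and 4, Cd8b1 1, 0 and 5 against 10, 2 and 1, and Klrb1c 1, 2 and 0 against 1, 1 and 2. Cd4 had means of 1.38 and 1.46 CPM, and Cd8a reached 1.37 CPM in edited 1 against at most 0.418 elsewhere. Of the 29 markers of these 3 lists 12 had enough counts to be tested, 1 of them a T or NK cell marker, and 0 were called by edgeR. Heart muscle markers differed between the groups: 6 of 10 fell, and their sum was 90470 to 93760 CPM in controls and 76330 to 80880 in edited hearts. The part of these markers in the members' values was not tested.

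The wider pathway was read from 6 lists of 94 genes, of which 89 were in the table and 68 were tested. In these lists 0 genes rose and 1 fell, against 4.93% and 4.74% of all tested genes. The median log2 change over the 68 was -0.03, and 14 (20.6%) had an unadjusted p under 0.05, against 24.4% of all tested genes. For 19 of the 68 the groups did not overlap, as for 29.3% of all tested genes. The call was Ifngr2, the signalling chain of the interferon gamma receptor. It was at 184.9, 188.1 and 187.3 CPM in controls and 148.0, 148.2 and 144.4 CPM in edited hearts. Every edited library was below every control, and libraries of a group differed little. The log2 change was -0.35 (SE 0.05), an interval of 73.2% to 84.5% of control (edgeR adjusted p = 0.00089). The exact permutation test gave p = 0.1, the smallest it allows. Without controls 1 and 3 the estimate was -0.36 and edgeR's adjusted p was 0.087, which ended the call. Over the other alternatives the adjusted p ran from 7.47e-08 in DESeq2's test to 0.0451 in edgeR's test with Myl7 as a covariate.

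**Figure D4:**
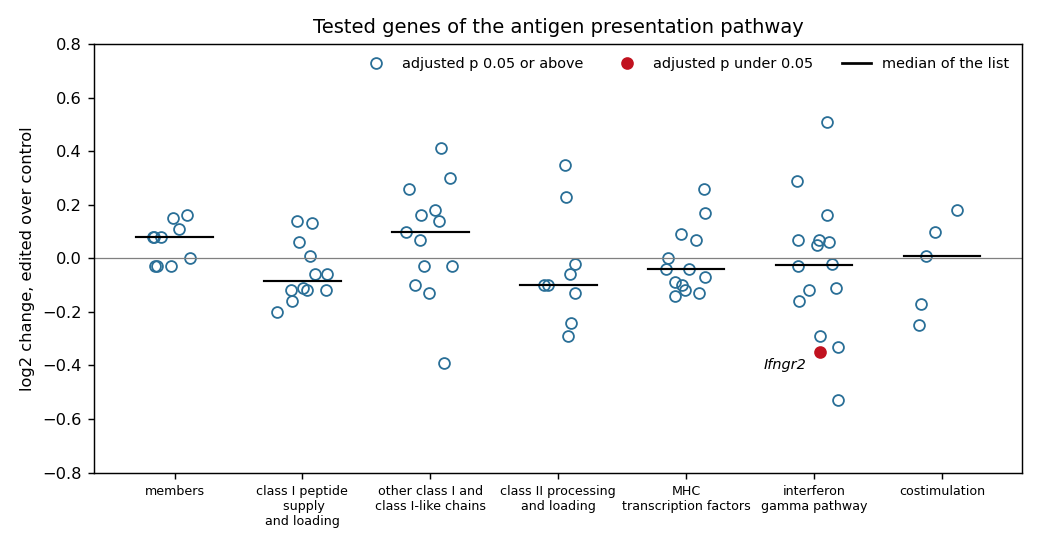
Log2 change, edited over control, of the 10 members and of the tested genes of 6 lists of the pathway; open circles did not pass edgeR's test, the filled circle did, and short lines are list medians. Ifngr2, at -0.35, is the gene that passed, and the members lie between -0.03 and 0.16.

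In the rest of the interferon gamma list (16 tested, 1 lower, median -0.02) nothing else passed. Ifng itself, the cytokine, had 1 count in control 3, 1 in edited 1 and none in the other 4 libraries. The interferon-induced GTPases Iigp1 and Igtp were at 13.4 ± 0.467 and 10.7 ± 1.78 CPM, and at 10.6 ± 0.486 and 8.59 ± 1.10 CPM (SD, n = 3). Their adjusted p was 0.0823 and 0.121 in edgeR's test.

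A list of MHC transcription factors was read as RNA too, and of its 13 genes 0 passed edgeR's test. Whether these factors act on the promoters shown above was not tested. Ciita, the class II coactivator, and Nlrc5, its class I counterpart, were named after their values were seen. Ciita had 0.923 ± 0.260 CPM without and 0.865 ± 0.328 CPM with treatment, and Nlrc5 at 0.824 ± 0.340 and 0.785 ± 0.469 (SD, n = 3). Both are so low that the intervals, 56.4% to 154% and 46.5% to 178.5% of control, exclude little. Rfxank, a subunit of RFX, was at 25.3 ± 3.05 and 30.5 ± 3.23 CPM (adjusted p = 0.112 in edgeR's test). It was called higher by limma voom, without the filter on low counts, and without control 2, with a lowest adjusted p of 0.0122. Irf2 and Rela, an NF-kB subunit, had log2 changes of 0.17 (SE 0.07) and -0.14 (SE 0.07).

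Peptide supply and class I loading genes (12 tested, 0 called) had a median log2 change of -0.09. Calr and Canx, chaperones of newly made class I and of many other proteins, were at 380 ± 4.54 and 341 ± 5.06 CPM, and at 307 ± 4.75 and 267 ± 27.2 CPM (SD, n = 3). Their groups did not overlap, and their adjusted p was 0.0623 and 0.0773 in edgeR's test, while DESeq2 and limma voom called both lower. Psme1, a proteasome activator subunit, was at 111 ± 3.64 and 102 ± 4.07 CPM (adjusted p = 0.182).

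In the class II processing list (9 tested, 0 called, median -0.10), Ctss, the protease that trims the invariant chain, was at 7.92 ± 0.754 and 6.75 ± 0.975 CPM. Ctsb and Lgmn, endosomal proteases, had log2 changes of -0.10 (SE 0.05) and -0.13 (SE 0.06), with adjusted p of 0.216 and 0.204 in edgeR's test. Costimulation genes (5 tested, 0 called) had a median of 0.01. Among them Icosl was at 6.10 ± 0.609 and 5.40 ± 0.584 CPM, Cd86 at 2.00 ± 0.193 and 1.69 ± 0.402, and Cd40 at 5.045 ± 0.200 and 5.41 ± 0.368 (SD, n = 3).

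Beyond H2-K1 and H2-D1, 13 other class I and class I-like chains were tested and 0 passed, with a median log2 change of 0.10. Cd1d1, which presents lipids, was at 16.3, 16.2 and 14.7 CPM in controls and 18.4, 17.8 and 20.05 in edited hearts (adjusted p = 0.067 in edgeR's test). Its groups did not overlap, and it was called higher with upper-quartile scaling and with limma voom. H2-T22 and H2-T24 had log2 changes of 0.18 (SE 0.09) and -0.39 (SE 0.22). The table holds 40 genes with an H2 symbol, of which 17 were tested, 0 called and 11 had no count in any library. H2-Q6, a class I gene named after its values were seen, had 6, 4 and 7 counts in controls and 11, 22 and 14 in edited hearts. It was too low for the filter, its groups did not overlap, and it was called higher without the filter and without edited 1. H2-K1 and H2-D1 gave 60.3% to 63.7% of the counts under these symbols in each library, leaving out H2-Ke6, which is named after the region and is not an antigen presenting chain.

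The 5 genes most like the 3 class I chains over the 6 libraries, among 10738 candidates of at least 5 CPM, were Cnppd1, Ubald2, Klhdc8b, Fam132a and Mkrn1, with Pearson's r of 0.994 to 0.983. Those most like the 4 class II genes were Zfp358, BC002059, Inppl1, Nr2f1 and Jmjd8, with r of 0.989 to 0.955. With 6 libraries and that many candidates, such values describe the likeness only.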

How the data were processed

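The authors deposited 1 table of raw read counts per gene. The build was mm10, and the tools listed per the submitters' processing notes are featureCounts, STAR, cutadapt and FastQC. Their versions, the strand setting and how reads with several matches were treated are not stated. The columns for the 2 mates of a library were equal in every gene (0 genes differed), so each library was read once. The table's gene length, an other deposited value per the file headers, gave levels per kb. Libraries of a group differed by more than sampling noise (chi-square per degree of freedom 4.19 to 15.6).

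Genes were kept by filterByExpr (minimum count 10). Libraries were scaled by TMM and groups compared with edgeR 4.0.16 in R 4.3.3 (glmQLFit, robust), group as the only term, Benjamini-Hochberg adjusted over 14879 genes. Intervals are 95%. The steps were tested on simulated data. Permutation tests were exact, over 20 arrangements (scipy 1.17.1). Alternatives used limma 3.58.1, DESeq2 1.42.0, other scalings and filters, a replicate block, Myl7 as a covariate, and left-out libraries. Shared windows came from GENCODE M21 transcripts. The 10 genes, the lists and the alternatives were chosen with earlier results of these data known. Besides the 10 genes, the text names called genes and up to 3 more of smallest p from each pathway list, defining markers of each cell list, and the 5 likest genes. The lists hold 4 class I symbols and H2-Ea that had no row to match. Some genes that this rule would name are not reported here.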

Additional observations from a re-analysis of the deposited data

How the results depend on the processing

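The 10 antigen presentation genes stayed uncalled under all 16 alternatives. The lowest adjusted p was 0.0814, for H2-K1 without edited 1 (log2 change 0.21), and the largest absolute log2 change of a member was 0.36, for H2-Aa without that library. With Myl7 as a covariate the members lay between -0.13 and 0.25, and without controls 1 and 3 between -0.15 and 0.19. That fit assumes that the lone control varies as the edited libraries do. The summed class I and class II levels, 1.04 and 1.03 of control, moved by less than the spread between libraries. Estimates changed sign in 20 of 160 cases, over 7 genes, including H2-Aa and H2-Eb1, whose estimates (0.15 and 0.16) were the largest; none was past the threshold. H2-D1 went from 0.001 to -0.00054 with DESeq2's size factors, -0.00043 with DESeq2, -0.02 with limma voom, -0.0045 with the replicate block, and between -0.09 and 0.11 leaving out 1 library. Leaving out 1 library gave -0.04 to 0.21 for H2-K1, -0.07 to 0.03 for Tapbp (including 0.01), -0.10 to 0.36 for H2-Aa, -0.25 to 0.12 for H2-Ab1 (including 0.03 and 0.0013) and -0.09 to 0.03 for Cd74 (including 0.02). With Myl7 as a covariate Tapbp was at 0.02, H2-Eb1 at -0.01 and Cd74 at 0.0045, and without controls 1 and 3 Tapbp was at 0.03. The cause was not tested.

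Calls in the wider pathway, 1 in the reported fit, numbered 2 with upper-quartile scaling, 5 without a filter, 3 with DESeq2, 6 with limma voom and 0 without controls 1 and 3, and 1 to 5 leaving out 1 library. Over all tested genes, 1438 calls became 2239 without a filter, 2398 with limma voom, 126 with the Myl7 covariate, 82 without controls 1 and 3, and 386 to 1661 leaving out 1 library (781 without control 1, 386 without control 3 and 743 without edited 3). Upper-quartile scaling gave 849 higher and 531 lower calls. Same-numbered libraries did not vary together (correlations of 0.02, -0.0957 and -0.0756), and the replicate block gave 1077 calls, with 0 among the members and 1 in the wider pathway.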
